A study of Mus musculus with 8 samples.

Results

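The cells described here are resident macrophages low in MHC class II from the organ of Corti of the mouse, which is the part of the cochlea that holds the hair cells and their supporting cells. They were selected on measured transcripts. A barcode was kept if it had at least 500 detected genes and under 25% mitochondrial unique molecular identifiers (UMIs, each counting 1 captured transcript). A kept barcode became a member if at least 3 of the 6 genes C1qa, C1qb, C1qc, Pf4, Mrc1 and Trem2 had a UMI, if H2-Aa, H2-Ab1 and H2-Eb1 together had under 5 UMIs, and if the fibroblast collagens Col1a2 and Col3a1 together had at most 2. The rule found 537 members among 6023 kept and 8061 deposited barcodes, and 54 further macrophage barcodes passed the same limits with 5 or more MHC class II UMIs.

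The study recorded single-cell transcriptomes by 10x droplet sequencing in 8 libraries of dissociated cochlea with the lateral wall removed, to follow how ectopic Atoh1 turns supporting cells into hair cells. Every mouse, controls included, carried Fgfr3iCre+ and Atoh1-HA+, with the reporters Chrna9-GFP+ and, after recombination, Rosa26-CAG-loxP-stop-loxP-tdTomato+. In this model the Fgfr3-driven inducible Cre releases Atoh1-HA in Deiters' and pillar cells, which are supporting cells and not macrophages. Uninjected mice gave the Coch P12 group at postnatal day 12 (n = 2 libraries) and the Coch P33 group at postnatal day 33 (n = 1). Mice injected with tamoxifen at P12-13 gave the Coch + Tmx P26 group (n = 3) and the Coch + Tmx P33 group (n = 2). All libraries of P26 and P33 are called later libraries here (n = 6). Of these only Coch P33 was labelled uninjected, so age and induction cannot be told apart in the comparison with P12. The study calls its replicates biological, but neither it nor the labels say which or how many animals made up a library. It reports 2 replicates in every group, whereas 3 libraries are labelled Coch + Tmx P26 and 1 is labelled Coch P33. The p-values measure the spread between these libraries.

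Library totals ran from 3972800 to 13423524 UMIs. In the kept barcodes Atoh1 was at 90.5 to 524 CPM (counts per 1000000 UMIs of the same barcodes) in 4 of the 5 injected libraries and at 17.5 to 23.7 CPM in the 3 uninjected ones. The library labelled Coch + Tmx P26 rep 3 was at 12.3 CPM, which goes against its label. It is counted as injected throughout, by its label only. Libraries shared 51 barcode sequences, at most 3 in any pair, and none of them belonged to a member. Haemoglobin transcripts made up 0.13% to 5.73% of the members' UMIs. In Coch P12 rep 2, for example, the median member held 13 erythroid-list UMIs of 2000 and the highest 1894.

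Macrophages live in the healthy cochlea among the nerve fibres, vessels and epithelium, where they engulf debris and present antigen. C1q starts the classical complement cascade, Mrc1 is the mannose receptor, Pf4 is a chemokine stored in some resident macrophages, and Trem2 is a lipid-sensing receptor that signals through Tyrobp. MHC class II presents peptides to helper T cells and separates a pair of broad states of tissue macrophages. Interferon, made on sensing of viral or self nucleic acid, binds receptors on nearby cells and switches on a set of antiviral genes.

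Of the 20 genes on a list of interferon targets, 13 had a promoter entry in RefSeq (GRCm38.p6, 250 bases before to 50 after the gene start). A stretch that reads GAAANNGAAA on either strand, the core of the element that interferon-activated factors bind, stood in 8 of these 13 genes, against 1079 of all 27025 genes with an entry (3.99%) and 1131 of their 32851 promoters (3.44%). Overlapping matches were counted separately. The windows below are shown because these 4 genes carry the values described under the interferon list; capitals mark the match, which on the opposite strand reads TTTCNNTTTC. Ifitm3 is at chr7:141010716-141010745 on the minus strand, Isg15 at chr4:156200875-156200904 on the minus strand, Ifit3 at chr19:34583363-34583392 on the plus strand and Rsad2 at chr12:26456553-26456582 on the minus strand.
Ifitm3: cagGAAAAGGAAActtctgaGAAACCGAAA
Isg15: tgccgtagGAAAAGGAAACCGAAACAGAAA
Ifit3: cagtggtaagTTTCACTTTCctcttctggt
Rsad2: ctggtccaacTTTCATTTTCagaaaacaga
A match is a description of these letters only, and Irf7, Ifit2, Oasl2, Xaf1 and Irf9 had none in their windows.

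The label was checked with 5 genes that the rule did not use. Csf1r is the receptor for the growth factor that keeps macrophages alive, Tyrobp and Fcer1g are signalling adaptors, Ctss is cathepsin S and Laptm5 is a lysosomal protein of blood-derived cells. Among the 537 members, 482 held at least 5 UMIs of these genes together, with a median of 76, and a median of 4 UMIs of marker lists for other cochlear cells. The other 55 members held a median of 1 such UMI, 248 UMIs of other-cell markers and 20261 UMIs in all, against 5888.5 in the 482. These other-cell lists cover stromal, nonsensory epithelial, hair, supporting and neural cells, and leave out blood cells. Some of the 55 held few of these markers. A barcode of Coch P33 held 20 in 12664 UMIs and a barcode of Coch + Tmx P33 rep 2 held 2 in 5163. Summed over the 55, hair cell markers reached 3000 to 3912 CPM in the 5 libraries where they were highest, and were lower in the others. In the 482 they stood at 1274 and 40.9 CPM in the Coch + Tmx P33 replicates and 50.5 in Coch P33. Markers of nonsensory epithelium were present in the 55 too. That list stood at 1678 and 2834 CPM in all members of the Coch + Tmx P33 replicates and 3916 in Coch P33. In the 482 it stood at 233, 530 and 434 CPM in the same libraries. The data go against the name macrophage for the 55. They came from every library but Coch + Tmx P26 rep 2, with 15 in Coch P12 rep 2, 14 and 12 in the Coch + Tmx P33 replicates and 8 of the 24 members of Coch P33. Some of the 482 resembled the 55 and stay in the values given for the 482. In Coch + Tmx P33 rep 1 a barcode of 37924 UMIs held 6 UMIs of the 5 genes and 341 of other-cell markers. In Coch P12 rep 2 a barcode of 10640 UMIs held 7 and 375.

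**Figure D1:**
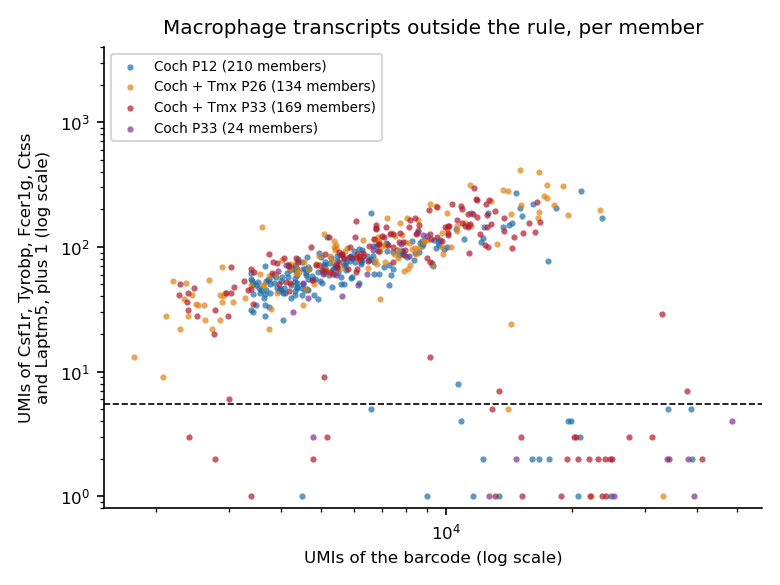
Each point is 1 of the 537 members. The horizontal axis is the barcode's total UMIs and the vertical axis the summed UMIs of Csf1r, Tyrobp, Fcer1g, Ctss and Laptm5 plus 1, both on log scales, and the dashed line lies just below 5 UMIs plus 1. Most of the 482 members above the line form a band that rises with depth, and a few large barcodes lie between the line and that band. The 55 below the line are mostly large barcodes.

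The lower edge of the rule held the same mixture. Members with 3 of the 6 macrophage genes numbered 47 and had a median of 3 C1q UMIs. The 385 members with all 6 genes had a median of 110 C1q UMIs, and the 174 kept barcodes with 2 genes, just outside, had 2. At least 1 C1q UMI was found in 11.6% to 55.6% of the other kept barcodes of each library. On MHC class II, 465 members had no UMI and 43 had 1, while 4 members sat at 4 UMIs just inside the limit and 1 barcode at 5 and 3 at 6 just outside. On collagen, 448 members had none and 19 had 2, against 18 barcodes with 3. Results below are given for all 537 members and, where levels per library are shown, for the 482 members with 5 or more UMIs of the 5 genes, a limit set after the values were seen.

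The genes most like the rule's own, ranked over all 537 members against other kept barcodes, were those of tissue macrophages and microglia. The 15 with the highest mean log2 ratio over the 8 libraries ran from Fcrls at 6.36 to Adgre1 at 5.53 and included Ms4a7, Ccl12, Ctss, Csf1r, Aif1, Ltc4s, Cx3cr1, Fcgr1, Cd68 and Clec4n. In the 482 members C1qa stood at 7138 and 6289 CPM at P12 and from 3753 to 7036 (median 6508) in the later libraries. C1qb stood at 5245 and 5009 CPM at P12 and from 5110 to 6842 later. Apoe, the main lipid carrier, was among the strongest transcripts of these cells, at 56683 and 52605 CPM at P12 and 30726 to 69669 later. Both groups overlapped for C1qa, C1qb and Apoe.

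The members were not uniform. Of the 482 members, 481 had at least 2000 UMIs and were each thinned to that depth. Among the 481, 81.3% had a Csf1r UMI, 69.2% a Cx3cr1 UMI and 97.7% a Lyz2 UMI. Csf1r is among the genes whose summed UMIs chose the 482, so its share follows in part from that choice. Markers of perivascular and scavenging macrophages appeared in smaller shares. F13a1 was found in 31.8%, Cbr2 in 27.0%, Lyve1 in 16.2%, Folr2 in 14.8%, Cd209f in 12.5% and Cd163 in 3.74%. The microglial genes P2ry12, Tmem119 and Siglech were found in 18.7%, 15.2% and 12.9%. In the other kept barcodes Lyve1 and P2ry12 reached 0.464% and 0.278%, and Tmem119 3.30%. Ccr2, the receptor of recently arrived monocytes, was found in 1 of the 481 (0.208%), against 0.389% of other kept barcodes. S100a8 of neutrophils was found in 8.94% of the 481 and in 8.99% of other kept barcodes. The other kept barcodes leave out the macrophage barcodes high in MHC class II, and hold every other cell type, blood cells included. They also hold 171 barcodes that failed the rule only on its collagen limit. So for these 2 genes their share is not a measure of free RNA.

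The share of members among kept barcodes was 10.1% and 8.06% in the P12 replicates. The Coch + Tmx P26 replicates had 7.37%, 5.98% and 6.95%, the Coch + Tmx P33 replicates 15.5% and 12.7%, and Coch P33 4.13%. The later libraries lay on both sides of P12, and the difference of means was -0.283 percentage points (later 8.78%, P12 9.06%; 2-sided exact permutation test, p = 0.929, n = 6 and 2). With 6 against 2 libraries this exact test cannot go below p = 0.0714. The share also moves with the recovery of every other cell type, whose part was not tested.

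Among all macrophage barcodes, those low in MHC class II made up 98.6% in each P12 replicate. In the later libraries they made up 98.3%, 64.2% and 93.2% at Coch + Tmx P26, 87.6% and 90.1% at Coch + Tmx P33 and 77.4% at Coch P33. All 6 later libraries lay below both P12 libraries, though Coch + Tmx P26 rep 1 did so by less than 1 macrophage barcode in its 60. The mean was 13.5 points lower later (85.1% against 98.6%; difference -13.5 points, 2-sided exact permutation test, p = 0.0714, n = 6 and 2), the smallest p this design allows. Among barcodes with 5 or more core macrophage UMIs the difference was -16.1 points (p = 0.0714, 2-sided exact permutation test).

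**Figure D2:**
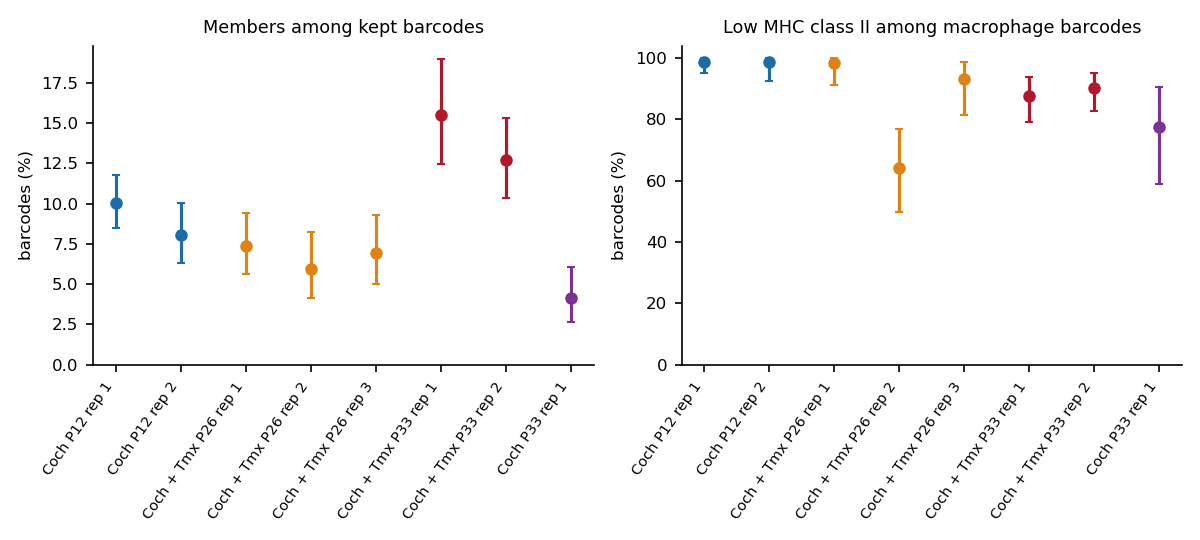
Left, members as a percentage of kept barcodes in each library; right, members as a percentage of all macrophage barcodes. Points are libraries, coloured by group, and bars are exact 95% binomial intervals that cover counting error only. Coch + Tmx P33 has the highest shares of members, and Coch + Tmx P26 rep 2 has the lowest share low in MHC class II (64.2%).

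Counts were summed over members in each library and tested between P12 and the later libraries with edgeR's quasi-likelihood test and Benjamini-Hochberg adjustment. In all 537 members 1 of 8415 genes passed an adjusted p of 0.05 (0.0119%), with 726 (8.63%) under an unadjusted 0.05. The gene was Col9a1, a collagen of the cochlear matrix, which fell by 5.88 on the log2 scale (SE 0.62, edgeR adjusted p = 0.0184). It stood at 70.9 and 413 CPM in the members at P12 and at 0 to 5.08 later, and was higher in the other kept barcodes of P12 (413 and 504 CPM) than in the members. Among the 482 it stood at 13.0 and 33.5 CPM at P12 and was not called. DESeq2 called 134 genes in all members (1.6%).

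In the 482 members 8 of 6728 genes passed the same test (0.119%), with 594 (8.83%) under an unadjusted 0.05. Ifitm3, Ifi27l2a, Alox5ap, Fdps, Socs3 and Cyr61 rose and Abca1 and Igf1 fell from P12 to the later libraries. None of the 8 passed in all 537 members, and the call depends on single libraries. Without Coch + Tmx P33 rep 2 or Coch P12 rep 2 no gene passed, without Coch + Tmx P26 rep 2 or Coch P12 rep 1 there were 2, and without Coch + Tmx P26 rep 1 there were 33. DESeq2 called 51 genes in these members (1.1%), the 8 included.

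Ifitm3 encodes a membrane protein that blocks viral entry. In the 482 members it stood at 114 and 136 CPM at P12. At Coch + Tmx P26 it stood at 564, 2054 and 2473 CPM, at Coch + Tmx P33 at 1070 and 2258, and at Coch P33 at 1010. Every later library was above both P12 libraries, and the log2 fold change was 3.78 (SE 0.59, edgeR adjusted p = 0.0268; 0.363 in all 537 members). Ifitm3 also stood higher later in the other kept barcodes, at 544 and 486 CPM at P12 and 992 to 1550 later. At 2000 UMIs an Ifitm3 transcript was found in 17.6% and 26.8% of these members at P12 and in 51.7% to 89.7% later. Free RNA brings a gene of neighbouring cells into droplets, and its part in the Ifitm3 values was not tested.

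Ifi27l2a, another interferon-induced gene, was a more macrophage-restricted transcript. Its level in the 482 members was 359 and 495 CPM at P12, 1891, 2966 and 4006 at Coch + Tmx P26, 1938 and 1958 at Coch + Tmx P33 and 1525 at Coch P33. In the other kept barcodes Ifi27l2a stood at 8.69 and 11.1 CPM at P12 and 105 to 397 later. The groups did not overlap in either set of cells. The log2 fold change of the 482 was 2.61 (SE 0.43, edgeR adjusted p = 0.0358; 0.366 in all 537).

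The 2 genes that fell have roles in lipid export and growth. Abca1, which pumps cholesterol out of macrophages, stood at 576 and 478 CPM at P12, at 115, 165 and 117 at Coch + Tmx P26, at 188 and 114 at Coch + Tmx P33 and at 141 at Coch P33. Its log2 fold change was -1.79 (SE 0.24, edgeR adjusted p = 0.0236; 0.234 in all 537 members). In the other kept barcodes Abca1 was at 83.0 and 53.4 CPM at P12 and 32.5 to 68.0 later, with overlap between the groups. Igf1, insulin-like growth factor 1, stood at 761 and 517 CPM at P12 and from 117 to 225 later, with Coch P33 at 121. Its log2 fold change was -1.71 (SE 0.26, edgeR adjusted p = 0.0268; 0.193 in all 537). The other kept barcodes moved the same way for Igf1, from 447 and 270 CPM at P12 to between 110 and 252 later.

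Alox5ap, the protein that hands arachidonic acid to 5-lipoxygenase in leukotriene synthesis, stood at 99.8 and 78.1 CPM at P12 and from 192 in Coch P33 to 423 in Coch + Tmx P26 rep 1. Its log2 fold change was 1.91 (SE 0.32, edgeR adjusted p = 0.0429), and in the other kept barcodes it stood at 3.21 and 2.78 CPM at P12 and 13.7 to 51.7 later. Fdps, an enzyme of the cholesterol pathway, stood at 10.1 and 20.5 CPM at P12 and 57.0 to 137 later (log2 fold change 2.49, SE 0.43, edgeR adjusted p = 0.0499). Socs3 damps cytokine signalling and stood at 11.6 and 18.6 CPM at P12 and 50.5 to 85.1 later (log2 fold change 2.33, SE 0.36, edgeR adjusted p = 0.0268). Cyr61, a secreted matrix protein, stood at 7.23 and 14.9 CPM at P12 and 58.6 to 135 later (log2 fold change 3.09, SE 0.47, edgeR adjusted p = 0.0268). Fdps, Socs3 and Cyr61 lay close to the level of a few UMIs at P12. Socs3 and Cyr61 were also higher in the other kept barcodes of the later libraries than in the 482 members, at 73.2 to 187 CPM and 170 to 310 CPM.

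**Figure D3:**
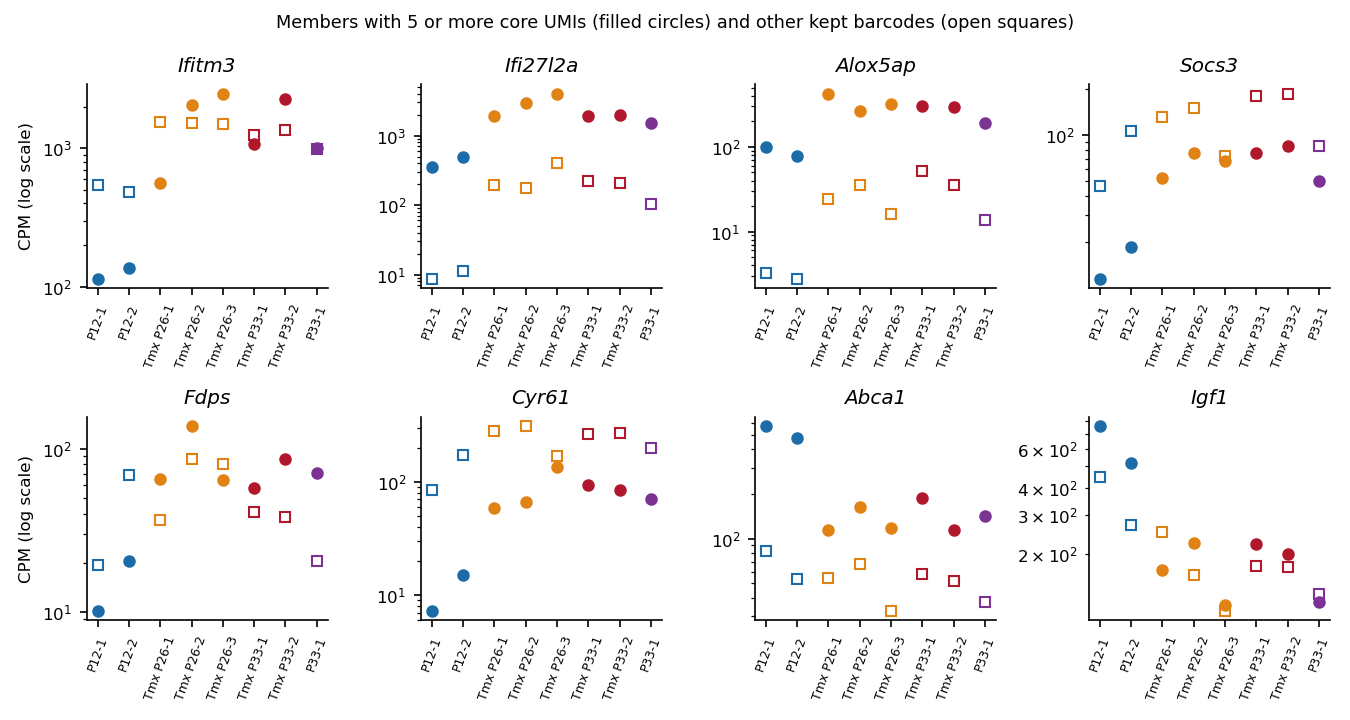
CPM on a log scale of the 8 genes called between P12 and the later libraries in the 482 members with 5 or more core UMIs (filled circles), with the other kept barcodes of the same library (open squares). Labels give group and replicate number, Tmx standing for Coch + Tmx. The 2 P12 libraries lie apart from the 6 later ones for each gene in the filled circles, and Abca1 and Igf1 are the pair that is lower later.

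Of the 16 lists of macrophage functions and states, the interferon list had the median furthest from that of all genes. All 20 genes were tested in both sets, and 19 of the 20 had a positive log2 fold change, later over P12. The median in the 482 was 2.73, against 0.03 over all tested genes, and 2 genes, Ifitm3 and Ifi27l2a, passed edgeR's test. DESeq2 called 8 of the 20, against 1.1% of all genes it tested. In 9 of the 20 every later library was above both P12 libraries, against 2.91% of all tested genes. In all 537 members none passed, 12 were under an unadjusted 0.05 against 8.63% of all tested genes, and the median was 2.25 against 0.06. There, 8 were above P12 in every later library against 3.16%, and DESeq2 called 7, against 1.6%. An earlier look at these data had already shown the direction of this list, so the counts describe it and are no independent evidence.

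The level of the list differed between later libraries. Summed over the list, the 482 members held 3670 and 3318 CPM at P12, 5092, 11002 and 12908 at Coch + Tmx P26, 6763 and 12039 at Coch + Tmx P33 and 6615 at Coch P33. The sums in the other kept barcodes were 1241 and 1211 CPM at P12 and 2310 to 3825 later. Isg15, a ubiquitin-like interferon target, stood at 23.1 and 16.7 CPM at P12 and 34.4, 577, 217, 112, 1018 and 111 in the later libraries in the order above, an edgeR log2 fold change of 4.23 (SE 1.15, adjusted p = 0.208). Irf7, the factor that amplifies the response, stood at 8.68 and 5.58 CPM at P12 and from 30.3 to 363 later (log2 fold change 4.81, SE 0.96, edgeR adjusted p = 0.0862). Ifit3 was at 28.9 and 9.30 CPM at P12, at 698 in Coch + Tmx P33 rep 2 and at 20.2 in Coch P33, so the groups overlapped. Rsad2 was at 2.89 and 1.86 CPM at P12, at 378 in Coch + Tmx P33 rep 2 and at 0 in Coch P33. Bst2 and Ly6e, already at 578 to 1553 CPM at P12, overlapped between the groups.

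The list was higher in the middle of the cells as well as in the highest cells. At 2000 UMIs a member of the 482 held a median of 7 and 6 interferon-list UMIs at P12, 9, 11 and 16 at Coch + Tmx P26, 13 and 16 at Coch + Tmx P33 and 11.5 at Coch P33. The lower quartile was 4 and 3 at P12 and 6 to 9.5 later. A share of 27.9% and 28.6% held 10 or more list UMIs at P12, against 48.3% to 74.4% later. In Coch + Tmx P33 rep 2 the upper quartile was 41 and the lower 8, while at P12 the upper quartile was 10 in both replicates. Neutrophil-list transcripts, which stood at 400 and 561 CPM in the other kept barcodes at P12 and at 2958 to 15346 later, moved with the stage in the 482 members too, at 4.34 and 40.9 CPM at P12 and 70.8 to 232 later. Their part in the interferon-list sums was not tested.

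**Figure D4:**
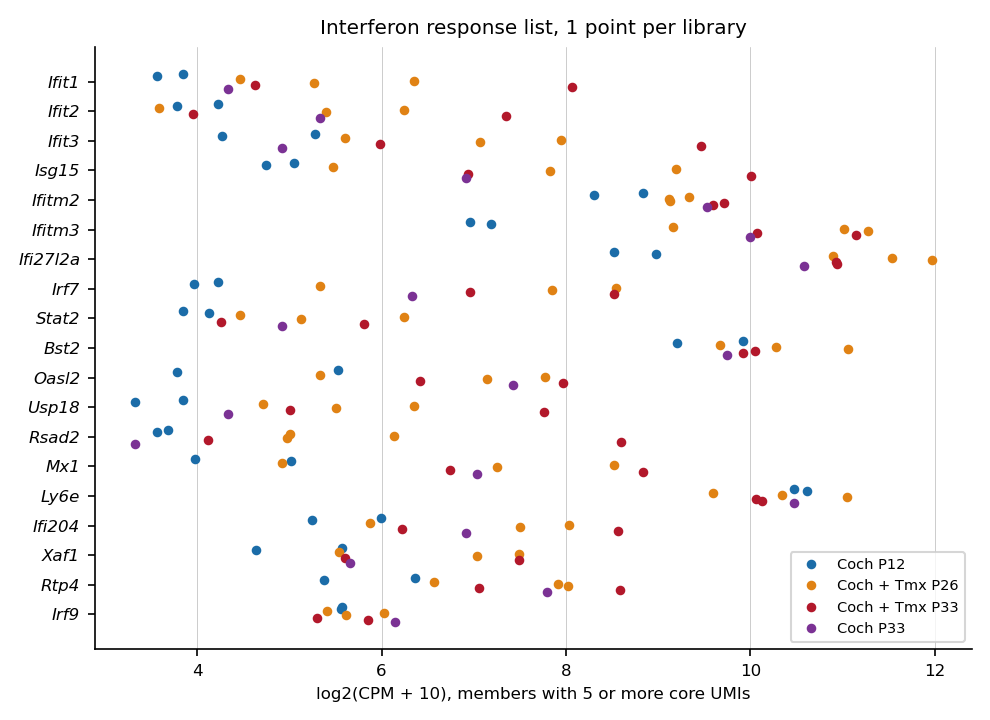
Level of 19 of the 20 interferon-list genes as log2(CPM + 10) in the 482 members with 5 or more core UMIs, 1 point per library coloured by group. For Ifitm3, Ifi27l2a, Irf7 and Isg15 all 6 later libraries lie to the right of P12, while Bst2, Ly6e and Irf9 overlap.

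No gene of the other macrophage lists passed edgeR's test in either set of members, except Abca1 in the lipid list and Igf1 in the growth factor list of the 482. MHC class I, which the rule did not use, had 9 of 9 tested genes with a positive log2 fold change and a median of 0.95 in the 482 members. In only 2 of the 9 was every later library above both P12 libraries, against 2.91% of all tested genes. In all 537 members this held for 0 of the 9, against 3.16%, and the median was 0.65. H2-D1 stood at 2493 and 1581 CPM at P12 and 2676 to 3661 later (log2 fold change 0.77, SE 0.27, edgeR adjusted p = 0.392), and B2m at 4392 and 3649 CPM at P12 and 4757 to 6559 later. The MHC class I list also stood higher later in the other kept barcodes, at 672 and 749 CPM at P12 and 1609 to 2181 later. The lipid handling and TREM2-type list had a median of -0.82 over 10 tested genes, of which 4 lay below P12 in every later library, against 6.61% of all tested genes; in all 537 members this held for 3 of the 10, against 4.12%. The complement list had a median of -0.02 (9 genes), the lysosome list -0.01 (19 genes) and the microglia list -0.38 (11 genes).

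Perivascular and scavenging genes went both ways. Of 12 tested, 7 had a positive and 5 a negative log2 fold change in the 482 members. None passed edgeR's test, 5 were under an unadjusted 0.05 against 8.83% of all tested genes, and DESeq2 called 3, against 1.1%. Lyve1, the hyaluronan receptor of perivascular macrophages, stood at 146 and 87.4 CPM at P12 and 336 to 566 in the injected libraries, but at 90.9 in Coch P33 (edgeR adjusted p = 0.208). Fcna, a secreted lectin, stood at 30.4 and 52.1 CPM at P12, 164 to 551 in the injected libraries and 30.3 in Coch P33 (edgeR adjusted p = 0.197). Cd209f, a C-type lectin, ran the other way, at 1186 and 592 CPM at P12, 22.2 to 975 in the injected libraries and 0 in Coch P33. For Lyve1 and Fcna the single library labelled uninjected at P33 was at the level of P12, and the 5 labelled injected were above it. In that library 1 UMI was worth 10.1 CPM, so its Fcna value rests on 3 UMIs. Among these 5, Coch + Tmx P26 rep 3, whose Atoh1 level goes against its label, had the highest Lyve1 (566 CPM) and Fcna (551 CPM).

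**Figure D5:**
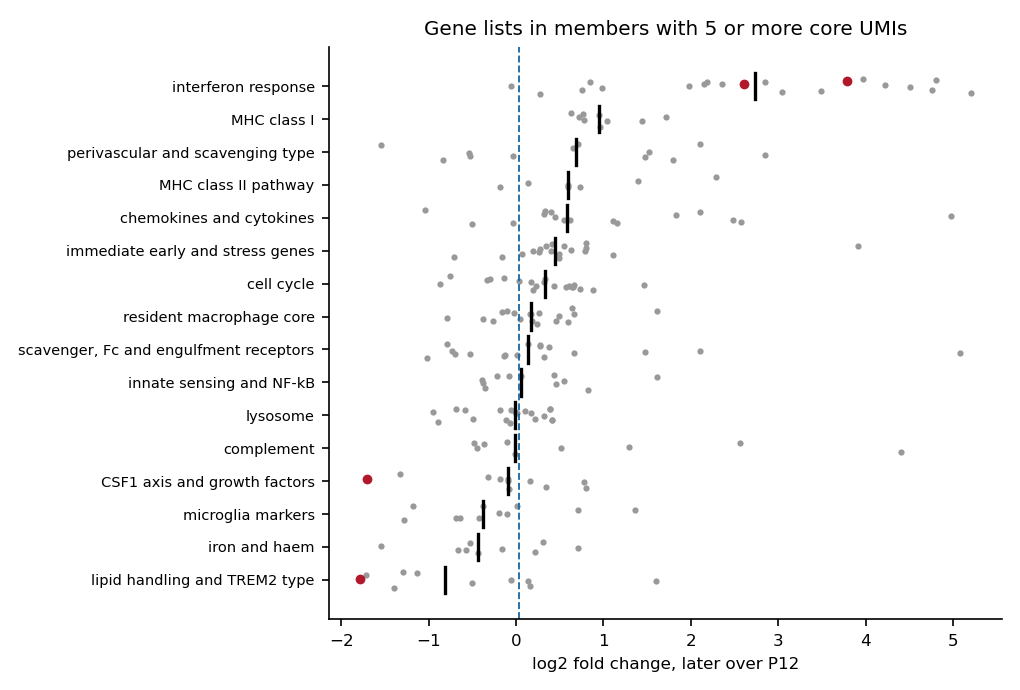
Log2 fold change, later over P12, of each tested gene of 16 lists in the 482 members (grey points), with genes that passed edgeR's test in red and the list median as a black bar. The dashed line is the median of all tested genes, 0.03, and the interferon list has the highest median, 2.73.

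Cell cycle transcripts did not separate the stages. A share of 61.2% and 50.7% of members at P12 and 33.3% to 61.0% later held at least 3 UMIs of a 22-gene cell cycle list at 2000 UMIs, a difference of means of -6.77 points (2-sided exact permutation test, p = 0.429, n = 6 and 2). Without thinning the shares were higher in every library. The list holds widely used genes such as H2afz and Tubb5, and no cycling can be read from this share alone. Mki67, a protein of dividing nuclei, had a UMI in 2.91% of the 481 thinned members and 1.95% of other kept barcodes. A clearer tail of 10 or more list UMIs held 7.90% of the 481 and 4.27% of other kept barcodes, with the highest share, 19.0%, in Coch + Tmx P26 rep 1.

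Between the injected ages, 10 of 9931 genes passed edgeR's test in all 537 members (0.101%), each higher at P33 than at P26. They were Atoh1, Calml4, Ccer2, Ccp110, Cdkn1c, Epcam, Gsn, Mapk13, S100a6 and Wwc1, which include the hair cell factor Atoh1 and the epithelial adhesion gene Epcam. On simulated counts this comparison recovered 5% and 52% of genes changed by 1 and 2 on the log2 scale, with 9 false calls. Atoh1 stood at 5.81, 5.49 and 3.05 CPM in members at P26 and 566 and 268 at P33 (log2 fold change 6.18, SE 0.50, edgeR adjusted p = 0.00138), and at 516 and 446 CPM in the other kept barcodes at P33. Among the 482 Atoh1 was at 289 and 1.70 CPM at P33. Ccer2 stood at 0 in each P26 library and at 1016 and 339 CPM at P33 in all members, and at 667 and 5.11 CPM in the 482. The summed hair cell list moved with these values, at 1274 and 40.9 CPM in the 482 members of the P33 replicates and at 3912 and 3689 CPM in the members with fewer core UMIs there. In all members 9 of 9 tested nonsensory epithelium genes also rose from P26 to P33. DESeq2 called 6 of them, against 0.84% of all genes it tested. In the 482, 7 of 8 rose and DESeq2 called 0.

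In the 482 members no gene of 8012 passed edgeR's test between P33 and P26 (0.0%), with 441 under an unadjusted 0.05, and DESeq2 called 7 (0.0874%). DESeq2 called 64 in all 537 (0.84%). Spp1, osteopontin, was an example of spread within one age. It stood at 1227, 71.4 and 60.5 CPM at Coch + Tmx P26 and at 643 and 1092 CPM at Coch + Tmx P33, so its P26 replicates spanned both P33 values.

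Coch P33 was the 1 later library labelled as without tamoxifen, and 16 of its 24 members had 5 or more core UMIs. It has no replicate check and no test was made. Intervals are exact Poisson 95% ranges for counting error only. Ifitm3 stood at 1010 CPM (822 to 1228) in Coch P33, beside 1070 (985 to 1160) and 2258 (2138 to 2383) in Coch + Tmx P33. Of the genes called between P12 and later in the 482 members when Coch P33 was left out (Abca1, Alox5ap, Cyr61, Ifi27l2a, Ifitm3, Igf1 and Socs3), all 7 were nearer in Coch P33 to the mean of the injected libraries than to P12 on the log2(CPM + 10) scale. Cd74, the invariant chain of MHC class II, stood at 2272 CPM (1985 to 2590) in Coch P33 against 570 (508 to 637) and 460 (407 to 518). Lyve1 stood at 90.9 CPM (41.6 to 173) against 336 (289 to 389) and 398 (349 to 453). Folr2, a folate receptor of perivascular macrophages, had 1 UMI, 10.1 CPM (0.256 to 56.3), against 228 (190 to 272) and 315 (271 to 364). Cd209f had 0 UMIs in Coch P33, where a count of 0 allows up to 30.3 CPM (3 UMIs), against 200 and 267 CPM. So Coch P33 differed from the Coch + Tmx P33 replicates in Cd74, Lyve1, Folr2 and Cd209f by more than counting error. The ranges leave out the spread between members of a library. Lyve1 was higher in every injected library than in Coch P33. Cd74, however, was close to the Coch P33 level in an injected library of Coch + Tmx P26, and Cd209f fell below 30.3 CPM in an injected library. A link of these values to tamoxifen was not tested, and the spread between cochleae at this age without tamoxifen is unknown.

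Members could be set beside high MHC class II macrophages in the 4 libraries that held at least 5 of each, Coch + Tmx P26 rep 2, both Coch + Tmx P33 replicates and Coch P33. With both sides limited to 5 or more core UMIs there were 34, 66, 77 and 16 members and 19, 11, 10 and 7 high barcodes. The split was made on MHC class II, so these values are a description with no test. Cd74 was lower in members in 4 of 4 libraries, at 2005 against 26763 CPM, 570 against 18054, 460 against 37973 and 2272 against 11232. Lyve1 was higher in members in 4 of 4, at 428 against 10.4 CPM, 336 against 67.2, 398 against 0 and 90.9 against 0. Fcrls, a microglial Fc receptor-like gene, was higher in members in 4 of 4, at 873 against 82.9 CPM, 1029 against 515, 1289 against 175 and 848 against 117. Ccr2 was at 0 in members and at 290, 33.6, 227 and 19.5 CPM in high barcodes. Mgl2, a lectin of monocyte-derived cells, stood at 20.2 to 54.9 CPM in members and 273 to 772 in high barcodes. The members of these 4 libraries thus had no Ccr2 UMI and carried the perivascular list at 1778 to 3620 CPM, against 176 to 1422 in the high barcodes.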

How the data were processed

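Counts were taken from the filtered gene-by-barcode matrices that the authors deposited (Cell Ranger, mm10, per the submitters' processing notes, with versions not given in the sources used here); values are whole UMI counts of 27998 genes, not normalized by the authors. 1 gene of the interferon list is not reported here by itself. Members, gene lists and tests were chosen with earlier results of these data known, and the limit of 5 core UMIs was added after the values were seen. Named genes were the rule's own markers, called genes whose groups did not overlap and whose level in members reached that of other barcodes (mean logCPM of at least 6), called list genes, and the 15 genes highest over other barcodes at a pooled 100 CPM; Col9a1, Socs3, Cyr61 and 9 of the 10 genes called between P33 and P26 were named after their values were seen. UMIs were summed over members per library and tested with edgeR 4.0.16 in R 4.3.3 (filterByExpr, TMM, quasi-likelihood), all 4 groups in 1 fit for P33 against P26 and P12 against all later libraries for stage; DESeq2 1.42.0 was an alternative. Scripts were tested on simulated counts modelled on all members, with genes changed by 1 or 2 on the log2 scale. The stage test recovered 0% and 17% of them, with 0 false calls. P33 against P26 recovered 5% and 52%, with 9 false calls in 8972 genes. A gene that was not called is therefore not shown to be unchanged. CPM is the sum divided by all UMIs of those barcodes. Between 99014 and 691507 UMIs stood behind a library in the 482 members, so 1 UMI was worth 1.45 to 10.1 CPM. Exact binomial and Poisson intervals (95%) and the floor of 3 counts cover counting error only. scrublet scores, at a rate of 0.8% per 1000 barcodes, marked 3 members as doublets, which were kept in the main results. Deviations of same-numbered libraries correlated at 0.11 to 0.23 between Coch + Tmx P26 and Coch + Tmx P33, and at -0.35 to -0.0075 against Coch P12. In groups of 2 libraries the deviations mirror each other, so these values cannot decide whether replicate numbers pair the libraries.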

Additional observations from a re-analysis of the deposited data

Results flagged for a closer look

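6 values had 1 later library that stood far from the other 5 by Dixon's criterion; 43 values were screened in this group of 6, and chance flags about 1 in 20 groups. All are CPM in the 482 members with 5 or more core UMIs. C1qa was lowest in Coch + Tmx P26 rep 1, at 3753 against 6053 or more in the others. Lgals3, galectin 3, was highest in the same library, at 528 against 103 or less. Cd209f had its highest level in Coch + Tmx P26 rep 3, at 975 against 267 or less. Ifit3 and Rsad2 were both highest in Coch + Tmx P33 rep 2, at 698 against 236 or less and at 378 against 60.4 or less. Fdps was highest in Coch + Tmx P26 rep 2, at 137 against 86.8 or less.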

How the results depend on the processing

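The count of genes called between P12 and later libraries in all members, 1, became 134 with DESeq2 (124 higher), 155 against the mean of the 3 later groups (121 higher), 8 with at least 5 core UMIs, 5 without a filter on low counts, 3 with at most 5 UMIs of other-cell markers, 2 under 10% mitochondrial UMIs, and 0 with no collagen UMI, with at least 4 macrophage genes, thinned to 2000 UMIs, or in injected libraries only; leaving out 1 library gave 0 to 3. The count of 8 in the 482 members became 51 with DESeq2 (43 higher) and 0 to 33 when 1 library was left out, a lone P12 library then being assumed to vary like the others. For P33 against P26 the count of 10 in all members became 64 with DESeq2, 77 with no collagen UMI, 5 without the filter, 2 with at least 4 macrophage genes, 2 thinned to 2000 UMIs, 0 with at most 5 UMIs of other-cell markers, 0 under 10% mitochondrial UMIs, 0 with at least 5 core UMIs, and 1 to 56 when 1 library was left out; in the 482 members the count of 0 became 7 with DESeq2 and 0 to 29. S100a6 turned from a log2 fold change of 4.93 to -0.051 with at most 5 UMIs of other-cell markers.

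With replicate number as a block, 0 genes were called in each comparison and set, though it is not known whether the numbers pair the libraries. The difference in the share of members turned from -0.283 to 0.662 points when barcodes were thinned before the rule, and ran from -1.64 to 0.716 points when 1 library was left out, positive without P26 replicate 2, P26 replicate 3, P12 replicate 1 or Coch P33. The share low in MHC class II stayed 9.26 to 16.1 points lower later (-16.1 to -9.26) under leaving out 1 library; p was 0.214 with under 2 MHC class II UMIs (-15.8 points), with at least 4 macrophage genes (-15.0) and thinned (-11.5). The cause of these shifts was not tested. Depth limits Coch P33 most, with 99014 UMIs in 16 members.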

Other observations

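Of 16 tested chemokine and cytokine genes, 13 had a positive log2 fold change, later over P12, in the 482 members (median 0.58). None passed edgeR's test, 6 were under an unadjusted 0.05 against 8.83% of all tested genes, and DESeq2 called 0. In 0 of the 16 was every later library above both P12 libraries, against 2.91% of all tested genes. In all members 2 of the 16 were under an unadjusted 0.05, against 8.63%. Ccl12, a monocyte attractant, stood in the 482 members at 334 and 188 CPM at P12, at 233, 2648 and 519 at Coch + Tmx P26, at 335 and 4131 at Coch + Tmx P33 and at 212 at Coch P33 (log2 fold change 2.49, SE 1.10, edgeR adjusted p = 0.541). Its highest libraries, Coch + Tmx P26 rep 2 and Coch + Tmx P33 rep 2, were also the 2 highest for Isg15, at 577 and 1018 CPM. Cd14, a co-receptor for bacterial lipopolysaccharide, stood at 318 and 249 CPM at P12 and 512 to 1049 later, above P12 in every later library (log2 fold change 1.61, SE 0.33, edgeR adjusted p = 0.111). Slc40a1, the iron exporter ferroportin, stood at 224 and 299 CPM at P12 and 20.2 to 139 later, below P12 in every later library (log2 fold change -1.54, SE 0.42, edgeR adjusted p = 0.208).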
